A study of Mus musculus with 22 samples.

Results

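The libraries described here hold mRNA from astrocytes of the optic nerve head (ONH), taken 7 or 30 days after microbead injection. Every library labelled ONH was used and none of the optic nerve proper, which gave 11 of the 22 libraries deposited here, 7 at 30 days and 4 at 7 days. Microbeads injected into the eye hinder the outflow of aqueous humor and raise intraocular pressure (IOP), a model of glaucoma. All mice of both groups came from a cross of B6J.129(Cg)-Rpl22tm1.1Psam/SjJ (ribotag) with the B6.Cg-Tg (GFAP-Cre) line 73.12Mvs/J, were 3 to 4 months old, are labelled WT, carried the tagged Rpl22 allele on both chromosomes together with the Cre transgene, and had been injected with microbeads. Each library is a pool of the ONHs of 4 mice, with both sexes in equal number, so values vary between pools and not between single animals. The Cre that places an HA tag on the ribosomal protein Rpl22 is driven by the GFAP promoter, so the tag marks cells with a history of GFAP-Cre activity, and mRNA of other cells carried through the precipitation is counted as well. No uninjected group is compared here, and the time since injection cannot be told apart from whatever else separates the cohorts.

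The ONH is the unmyelinated start of the optic nerve, where astrocytes are the main glia and ensheath bundles of retinal ganglion cell axons. Energy for ion pumping and glutamate clearance comes from glycolysis and from oxidative phosphorylation, whose respiratory complexes are built of many small proteins encoded in the nucleus and a few encoded in the mitochondrion. Reactive astrocytes are known to change their cytoskeleton, matrix, chaperones and immune genes, and RNA on tagged ribosomes reads those parts of the response that are being translated.

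The counts were scaled by library size to CPM with the TMM method and compared with the quasi-likelihood test of edgeR, and a log2 fold change (log2FC) above 0 means a higher level at 30 than at 7 days. Libraries held 16819713 to 33307092 counts, and with all libraries the mean total did not separate the days (exact permutation test, two-sided, p = 0.933). Libraries 1, 5 and 6 of 7 days, at 16819713 to 17149744 counts, lay below every 30-day library (18026821 to 24746846). Library 3 of 7 days lay above them all at 33307092. With 1 library left out, the difference of means (30 minus 7) ran from -1003329 to 4492464, the highest without library 3 of 7 days. Of 15668 genes tested, 0 (0%) passed an adjusted p-value of 0.05 with edgeR, and the smallest adjusted p-value, 0.0700, was shared by 2 genes, Arl4d and Errfi1. Without adjustment, 1113 genes (7.1%) were higher and 1066 (6.8%) lower with p under 0.05. DESeq2, the tool the authors used, gave 17430 genes an adjusted p-value and called 279 (1.6%) higher and 169 (0.97%) lower. In 252 genes (1.61%) every 30-day library lay above every 7-day library, and in 98 genes (0.625%) every one lay below. These 350 genes (2.23%) are called separated in the following, and 216 of them were among the 448 genes (2.57%) that DESeq2 called. The median log2FC of all genes tested was -0.02, with an interquartile range from -0.34 to 0.29.

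Some libraries bear on much of what follows. Among the 1113 genes higher at 30 days with an unadjusted p under 0.05, library 5 of 7 days lay within the 30-day range or above it for 56.2%, against 12.7%, 29.6% and 10.7% for libraries 1, 3 and 6. Among the 1066 lower genes, libraries 5 and 3 lay within the 30-day range or below it for 54.6% and 52.3%, against 18.9% and 25.2% for libraries 1 and 6. Over all genes tested it was library 3 whose log2 CPM had the highest median correlation with the 30-day libraries (Pearson's r = 0.948, against 0.914 to 0.928 for the other 3), as a description across genes. Library 3 also held the most counts, and whether depth bears on this correlation was not tested. Without library 5, edgeR called 123 genes higher (0.763%) and 44 lower (0.273%) with adjusted p under 0.05. Of these 167 genes, 157 had an unadjusted p under 0.05 and 102 were DESeq2 calls with all libraries. The fits share every library but library 5, so this overlap is no independent support. Library 5 was singled out from these same data, so more calls without it follow in part by construction. Library 7 of 30 days held the most microglial and pituitary mRNA. What sets these libraries apart was not tested.

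The strongest single differences were 2 genes lower at 30 days. Arl4d, a small GTPase of the ARF family that acts at the plasma membrane, lies on chromosome 11 (GRCm38, 101665541 to 101667832). It ranged from 3.50 to 10.8 CPM at 30 days (median 6.44), against 30.5, 15.5, 37.7 and 25.0 CPM in libraries 1, 3, 5 and 6 of 7 days. All 30-day libraries were lower than all 7-day libraries, with a log2FC of -2.03 ± 0.29 (SE; edgeR, adjusted p = 0.0700). Errfi1 (Mig6), a feedback inhibitor of the EGF receptor, lies on chromosome 4 (150853919 to 150868892). It ranged from 74.0 to 95.2 CPM at 30 days (median 82.8) and was at 225, 192, 117 and 273 CPM at 7 days. The 30-day libraries lay in a narrow band under all 7-day libraries, of which library 5 was the lowest, with a log2FC of -1.29 ± 0.19 (edgeR, adjusted p = 0.0700). DESeq2 called both (adjusted p = 5.78e-07 and 4.66e-06).

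Other separated genes that were lower at 30 days had several roles. Tsc22d3 (GILZ), a transcript induced by glucocorticoids, was at 115 to 154 CPM at 30 days (median 141) and at 168, 292, 211 and 269 CPM at 7 days, a log2FC of -0.78. Csad, which makes hypotaurine for taurine synthesis, was at 43.3 to 55.0 CPM (median 47.8) against 68.3, 88.9, 78.0 and 79.3 CPM, a log2FC of -0.69. Clk1, a kinase of splicing factors, was at 10.4 to 14.5 CPM (median 13.2) against 29.0, 20.3, 19.8 and 28.0 CPM, a log2FC of -0.91. In all 3 the 30-day libraries were lower and varied little. The arrestin-domain gene Arrdc2 (log2FC -0.97) and Cavin2, a coat protein of caveolae (log2FC -0.80), were separated too. Each of these 5 had an adjusted p of 0.180 with edgeR and was a DESeq2 call, with adjusted p from 1.16e-05 for Csad to 0.00374 for Tsc22d3. Csad overlaps Zfp740 on the other strand, whose log2FC was 0.06.

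Abundant genes of the cell's frame were lower by smaller amounts. Actg1, the cytoplasmic gamma actin, was at 1643 to 2321 CPM at 30 days (median 2059) and at 2509, 2690.5, 2359 and 2698 CPM at 7 days, a log2FC of -0.34. Lmna, the nuclear lamin A and C, was at 228 to 299 CPM (median 251) against 362, 376, 351 and 331 CPM, a log2FC of -0.51. Both were separated, Actg1 by a small margin and Lmna by more. Anxa3 (log2FC -0.54), a calcium-dependent membrane binder, and Arf4 (log2FC -0.30), a GTPase of Golgi traffic, were separated in the same direction. Among these 4, DESeq2 called Lmna and Anxa3 (adjusted p = 0.00215 and 0.0229), and edgeR's adjusted p ranged from 0.185 to 0.322.

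Separated genes that were higher at 30 days had other roles. Ppp1r7, a regulatory subunit of protein phosphatase 1, was at 87.4 to 147 CPM at 30 days (median 117) and at 52.2, 66.3, 30.3 and 46.2 CPM at 7 days, a log2FC of 1.27 ± 0.21 (edgeR, adjusted p = 0.148). Qk (quaking), an RNA-binding protein of glial mRNAs, was at 468 to 647 CPM (median 545) against 338, 372, 349 and 278 CPM, a log2FC of 0.75 ± 0.14. Crebrf, a negative regulator of CREB3, was at 72.4 to 151 CPM (median 86.5) against 30.8, 42.5, 34.5 and 56.3 CPM, a log2FC of 1.21. Library 5 of 7 days lay with the other 7-day libraries in all 3, and in Ppp1r7 it was the lowest of them. DESeq2 called the 3 genes with adjusted p of 1.18e-05, 0.000108 and 0.00108.

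A pair of partners was among them. Vhl, the substrate receptor of the ubiquitin ligase that degrades hypoxia-inducible factors when oxygen is present, was at 112 to 142 CPM at 30 days (median 126) and at 80.4, 95.3, 82.0 and 84.1 CPM at 7 days, a log2FC of 0.57 ± 0.12. Eloc (elongin C), which joins Vhl to the ligase, was at 57.7 to 110.1 CPM (median 71.4) against 40.1, 38.9, 46.9 and 39.4 CPM, a log2FC of 0.93 ± 0.19. The groups did not overlap in either gene. DESeq2 called both (adjusted p = 0.000222 and 0.00300), and both had an adjusted p of 0.180 with edgeR. Gng10, a G protein gamma subunit (log2FC 1.19), Tomm7, a small subunit of the mitochondrial import pore (log2FC 1.39), and the unnamed transcripts BC005537 (log2FC 0.95) and 2900097C17Rik (log2FC 0.87) were also separated.

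Abundant astrocyte transcripts were in this set. S100b, a calcium-binding protein of astrocytes, was at 1622 to 3188 CPM at 30 days (median 1853) and at 977, 1321, 1511 and 905 CPM at 7 days, a log2FC of 0.79. Gpm6b, a membrane proteolipid of glia, was at 3703 to 4870.1 CPM (median 4008) against 2729, 3626, 3334 and 2721 CPM, a log2FC of 0.42. In both the groups were separated by a narrow gap. Cfl1 (cofilin, which severs actin filaments; log2FC 0.53) and Ywhae (a 14-3-3 protein; log2FC 0.46) were higher as well. DESeq2 called S100b and Cfl1 (adjusted p = 0.0288 and 0.0372) and edgeR none of the 4 (adjusted p 0.189 to 0.235).

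**Figure D1:**
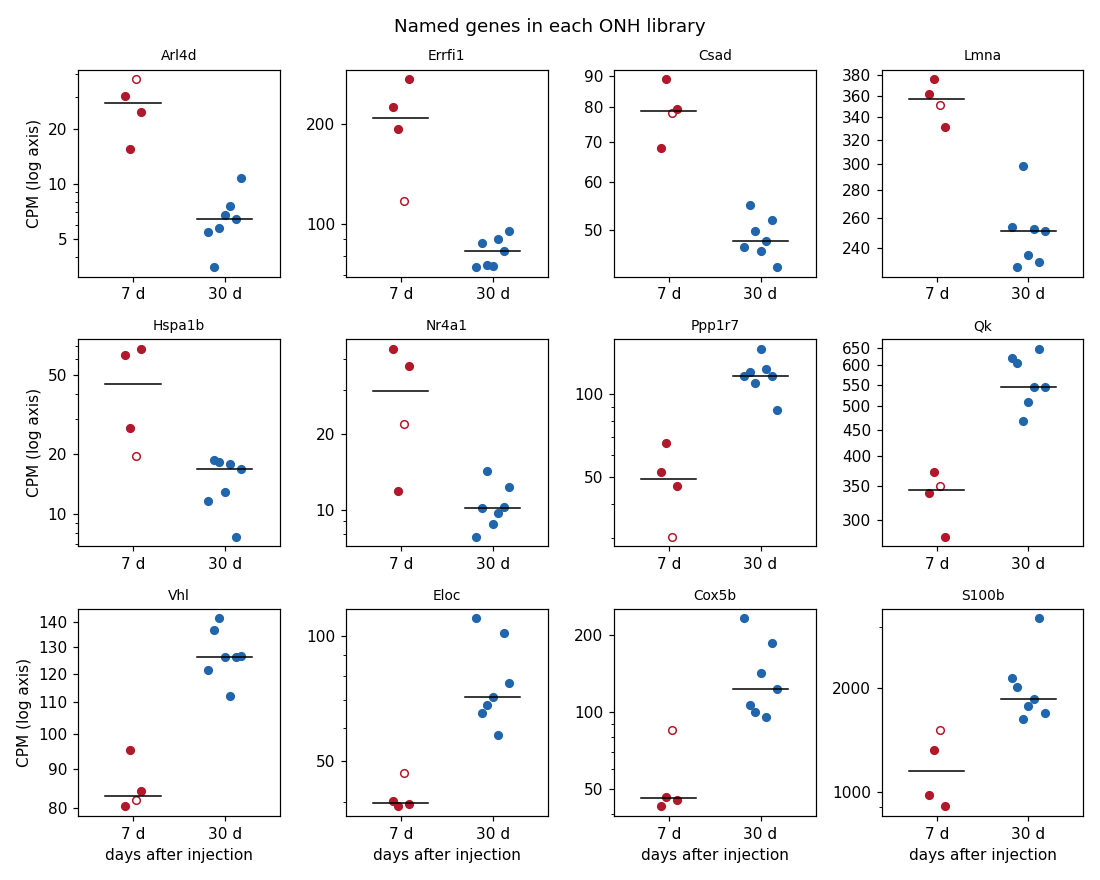
CPM (log axis) of 12 named genes in each of the 7 libraries of 30 days and the 4 libraries of 7 days, 1 point a library, with library 5 of 7 days as an open point and a line at the median of each day. The 4 genes of the top row and Hspa1b are lower at 30 days in every library, Nr4a1 overlaps through 1 library of 7 days, and the 6 other genes are higher in every library of 30 days.

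The largest fold changes were of genes near the limit of detection. Uprt was at 0 CPM in all 4 libraries of 7 days and at 0.0802 to 1.53 CPM at 30 days (mean 0.775 ± 0.627 SD, n = 7), at least 4.35-fold higher when 7 days is set at 3 counts in the shallowest library (0.178 CPM). Wnt7a, a Wnt ligand, was at 0.490 to 1.36 CPM at 30 days (median 0.876), and at 0, 0, 0 and 0.173 CPM at 7 days. Fat3, an atypical cadherin, was at 0.155 to 3.39 CPM (median 1.29) and at 0, 0, 0 and 0.115 CPM. All 3 were separated at levels of few reads a library, where a fitted fold change depends on the prior count. Pagr1a seemed to change most among genes of a higher level, from 4.78, 0.642, 0.232 and 0 CPM at 7 days to 14.5 to 41.6 CPM at 30 days (median 28.4). Its position overlaps that of Gm42742 on the same strand, which was at 33.9 to 109 CPM at 7 days. The sum of both was 29.2 to 98.1 CPM at 30 days and 38.7 to 109 CPM at 7 days, so the groups overlapped, and the level of Pagr1a alone is uncertain.

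Subunits of the respiratory chain and of ribosomes were higher at 30 days as groups. Complex II stood out less, with 3 of 4 subunits higher (median log2FC 0.21), 1 with an unadjusted p under 0.05 and 0 called by DESeq2. Its genes are counted among the nuclear respiratory subunits below. For complex IV, 14 of 14 subunits were higher, with a median log2FC of 0.65, and for complex I 32 of 36, with a median of 0.53. For ATP synthase 15 of 17 (median 0.59) and for complex III 7 of 9 (median 0.49) were higher. Complexes IV and I, ATP synthase and complex III had 8, 19, 9 and 4 members at an unadjusted p under 0.05, all higher. Of all genes, 7.1% were higher with such a p. Cytosolic ribosomal proteins were higher in 82 of 83 (median 0.56, 48 with an unadjusted p under 0.05), and mitochondrial ribosomal proteins in 64 of 76 (median 0.26, 16 higher and 1 lower with such a p). Sm and LSm proteins, the ring-shaped cores of spliceosomal and mRNA-decay particles, were higher in 25 of 30 (median 0.38, 9 with such a p). DESeq2 called 5 subunits of ATP synthase, 7 of complex I, 2 of complex IV and 3 of complex III, all higher. It also called 15 cytosolic and 2 mitochondrial ribosomal proteins and 2 Sm and LSm proteins, all higher. Of all genes given an adjusted p-value by DESeq2, 1.6% were called higher.

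Separated and higher were 3 of the 17 ATP synthase subunits, 2 of the 36 of complex I and 1 of the 14 of complex IV, with 0 of complex III, and 9 of the 83 cytosolic ribosomal proteins, where 1.61% of all genes were. Cox5b, a subunit of complex IV, was at 95.5 to 233 CPM at 30 days (median 124) and at 42.7, 46.8, 85.5 and 45.3 CPM at 7 days, a log2FC of 1.36 ± 0.29 (edgeR, adjusted p = 0.180). Atp5e, the epsilon subunit of ATP synthase, was at 38.9 to 82.2 CPM (median 43.8) against 23.4, 13.5, 31.4 and 16.3 CPM, a log2FC of 1.27. Rps20, a protein of the small ribosomal subunit, was at 32.7 to 79.1 CPM (median 40.9) against 20.4, 11.5, 28.5 and 17.1 CPM, a log2FC of 1.36. In each of the 3, library 5 was the highest at 7 days and the only one near the 30-day range. Uqcr10, a small subunit of complex III, showed the same with an overlap, at 47.3 to 95.1 CPM (median 63.6) against 29.1, 25.0, 52.8 and 28.0 CPM. Without library 5 the medians became 0.85 for complex I, 0.94 for complex IV and 0.88 for cytosolic ribosomal proteins. In that fit edgeR called 10, 5 and 15 of their members higher, where it called 0.763% of all genes higher. Library 5 was singled out among the genes higher at 30 days, so these larger medians and counts follow in part by construction.

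Single subunits of these complexes had a log2FC below 0 without passing an unadjusted p of 0.05. Ndufs1 (complex I) had a log2FC of -0.31, Uqcrc2 (complex III) of -0.31 and Atp5b, the catalytic beta subunit of ATP synthase, of -0.34, with unadjusted p of 0.118, 0.0565 and 0.0699. Of the 17 enzymes of the TCA cycle 16 were lower (median log2FC -0.18), 1 with an unadjusted p under 0.05 (6.8% of all genes). Glycolysis was even, with 9 genes higher and 9 lower. Eno2, an enolase, was the 1 glycolytic gene with an unadjusted p under 0.05, at 24.8 to 46.6 CPM at 30 days (median 39.7) and 65.3, 58.0, 55.5 and 60.8 CPM at 7 days, separated with a log2FC of -0.71 (edgeR, adjusted p = 0.185; DESeq2, adjusted p = 0.0158). Of the 13 proteins encoded in the mitochondrion 12 were higher, with a median log2FC of 0.14, of which mt-Nd4l was separated (log2FC 1.04).

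Transcript length moved with these values. Genes were split into 5 classes of equal size by the length of their longest annotated transcript, which need not be the one expressed. In the shortest class (median 1310 bases) the median log2FC was 0.18 and 2032 of 3133 were higher, whereas the 4 longer classes had medians from -0.10 to -0.02. Classes of GC content differed little, with medians from -0.06 to 0.02. Within the shortest class, the median of the 60 nuclear respiratory subunits was 0.53 and of the 63 cytosolic ribosomal proteins 0.62, against 0.16 for the 2952 genes outside the lists of respiration and translation. Of the 20 respiratory subunits with longer transcripts 14 were higher and 6 lower (median 0.55), against 57 and 3 in the shortest class. The 20 such ribosomal proteins were all higher (median 0.49). A correction for length and GC content in each library lowered the medians from 0.53 to 0.27 for complex I, from 0.65 to 0.25 for complex IV and from 0.56 to 0.39 for cytosolic ribosomal proteins. Whether length accounts for the rest was not tested.

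**Figure D2:**
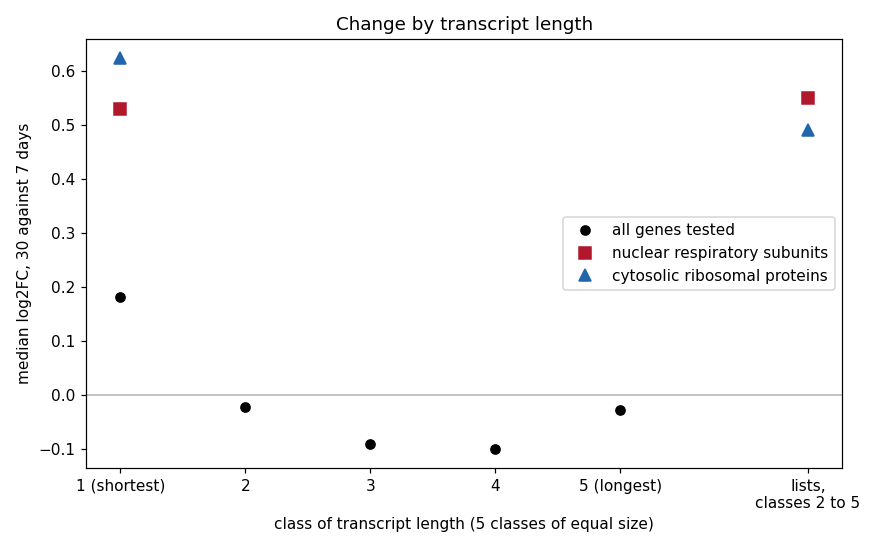
Median log2FC (30 against 7 days, edgeR) over 5 classes of transcript length for all genes tested (points), beside the nuclear respiratory subunits and cytosolic ribosomal proteins of the shortest class and of the other classes. Genes of the shortest class sit at 0.18, and the medians of both lists sit between 0.49 and 0.62 in either class of length. Of the 20 longer respiratory subunits, 6 were lower.

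Promoters of the small subunits and ribosomal proteins are shown since these genes moved together. Of 16179 genes with a promoter (RefSeq, GRCm38.p6, 250 bases before to 50 after the start) matched by symbol, 13.3% held the ETS letters CCGGAAG on either strand, 5.02% the NRF1 letters GCATGCG and 6.55% the YY1 letters AAGATGG. Among the 11570 of these promoters that belong to genes tested, the shares were 16.9%, 6.16% and 6.85%. Of 62 cytosolic ribosomal protein genes with a promoter, 24 (38.7%) held the ETS letters, and of 64 nuclear respiratory genes 15 (23.4%) held them and 10 (15.6%) the NRF1 letters. Of the separated genes, 30 of 183 (16.4%) that were higher and 19 of 81 (23.5%) that were lower held the ETS letters. ETS, NRF1 and YY1 are families of factors known to bind promoters of mitochondrial and ribosomal genes. Some of the members with a match within 150 bases and a small p are printed here. Rpl37 (ETS) and Atp5k (NRF1) had a smaller p than Rps21 and Ndufa11 and are not printed. Shown are the 150 bases before the start, 5′ to 3′ along the gene's strand. The ETS letters are in capitals (NRF1 letters for Ndufa11).
Rps21 (chr2:180257229-180257378, plus strand): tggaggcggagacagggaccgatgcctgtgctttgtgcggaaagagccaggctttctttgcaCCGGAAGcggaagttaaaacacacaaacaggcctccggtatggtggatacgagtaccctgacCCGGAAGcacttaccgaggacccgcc
Atp5e (chr2:174464102-174464251, minus strand): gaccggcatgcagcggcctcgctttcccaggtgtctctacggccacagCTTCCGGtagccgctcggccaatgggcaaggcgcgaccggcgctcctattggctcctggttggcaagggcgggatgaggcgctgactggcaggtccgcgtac
Uqcr11 (chr10:80406822-80406971, minus strand): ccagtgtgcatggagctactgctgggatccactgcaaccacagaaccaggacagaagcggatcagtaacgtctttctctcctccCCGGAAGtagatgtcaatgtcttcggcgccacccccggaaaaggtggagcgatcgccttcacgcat
Ndufa11 (chr17:56717612-56717761, plus strand): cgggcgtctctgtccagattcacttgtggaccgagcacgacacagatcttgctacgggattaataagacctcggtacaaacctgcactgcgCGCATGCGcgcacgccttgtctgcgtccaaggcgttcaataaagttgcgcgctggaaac
Rps21 held the ETS letters at 2 places, and its level was 11.6 to 35.1 CPM at 30 days (median 14.1) against 6.22, 3.73, 12.5 and 4.32 CPM at 7 days. In Ndufa11 the 8 capitals hold the NRF1 letters on both strands. Binding of these factors was not measured.

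Chaperones and genes of the endoplasmic reticulum were lower at 30 days. Of 23 cytosolic heat shock proteins and co-chaperones 17 were lower (median log2FC -0.13, and -0.06 without library 5 of 7 days), and 7 had an unadjusted p under 0.05, all lower, where 6.8% of all genes were. Hspa1b, an inducible Hsp70, was at 7.64 to 18.6 CPM at 30 days (median 16.8) and at 63.1, 27.0, 19.5 and 67.7 CPM at 7 days, a log2FC of -1.58 ± 0.33 (edgeR, adjusted p = 0.180). Chordc1, a partner of Hsp90, was at 22.7 to 34.3 CPM (median 30.5) against 53.0, 44.6, 43.0 and 60.2 CPM, a log2FC of -0.75. Both were separated and called by DESeq2 (adjusted p = 0.00351 and 0.00262), with library 5 the lowest of 7 days. Reads of Hspa1b may be shared with its near-identical neighbour Hspa1a. Of 25 genes of the unfolded protein response 22 were lower (median -0.35, 8 with an unadjusted p under 0.05). Pdia6, which forms disulfide bonds, was at 371 to 536 CPM (median 418) against 714, 727, 643 and 544 CPM, separated with a log2FC of -0.60 (DESeq2, adjusted p = 0.0106).

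Immediate early genes, which are transcribed within minutes of a stimulus, were lower in 27 of 30 (median log2FC -0.60). At an unadjusted p under 0.05 stood 12 lower genes and 1 higher gene, where 6.8% of all genes were lower and 7.1% higher. The orphan nuclear receptor Nr4a1 was at 7.81 to 14.3 CPM at 30 days (median 10.2) and at 43.8, 11.9, 22.1 and 37.3 CPM at 7 days, a log2FC of -1.46 ± 0.30 (edgeR, adjusted p = 0.180; DESeq2, adjusted p = 0.00273). Only library 3 of 7 days fell in the 30-day range. Gadd45b went the other way, at 49.1 to 83.1 CPM (median 55.5) against 17.7, 35.2, 59.0 and 18.6 CPM, a log2FC of 0.92. Of the 19 clock genes 13 were lower, with a median of -0.33, and 5 had an unadjusted p under 0.05, all lower.

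Genes of the interferon response were nearly all lower. At 30 days 35 of 36 were lower, with a median log2FC of -0.74, and 17 had an unadjusted p under 0.05, where 6.8% of all genes were lower with such a p. DESeq2 called 4 of them lower, where it called 0.97% of all genes lower. Gbp2, an interferon-induced GTPase also listed as a marker of A1 reactive astrocytes, was at 77.0 to 185 CPM at 30 days (median 108) and at 262, 264, 154 and 198 CPM at 7 days, a log2FC of -0.86 (edgeR, adjusted p = 0.189; DESeq2, adjusted p = 0.0423). Only library 5 of 7 days fell in the 30-day range of Gbp2, and 0 of the 36 genes were separated. The 30-day libraries differed among themselves: the median deviation of the list from each gene's mean over all 11 libraries ran from -0.90 on the log2 scale in library 3 to 0.33 in library 5, while at 7 days it ran from 0.02 in library 5 to 0.85 in library 1. Psmb9, a subunit of the immunoproteasome, was the 1 member higher (log2FC 0.30, unadjusted p = 0.362).

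Other immune genes were mixed. Of 13 genes of MHC class I antigen presentation 9 were lower (median log2FC -0.20), and Tapbp, which loads peptides, was separated at 292 to 412 CPM (median 392) against 418, 591, 424 and 571 CPM. Of 19 complement genes 12 were lower (median -0.46). C1ra was lower (log2FC -1.54; DESeq2, adjusted p = 0.0441), whereas C3 was at 77.6 to 134 CPM at 30 days (median 104) and at 103, 82.4, 54.0 and 46.0 CPM at 7 days, a log2FC of 0.51 (edgeR, adjusted p = 0.341). Of 11 A1 genes 9 were lower (median -0.59, 5 with an unadjusted p under 0.05), where 6.8% of all genes were lower with such a p. Of 12 genes listed as markers of A2 reactive astrocytes 8 were lower (median -0.26), 2 of them with such a p. Of 13 pan-reactive genes 10 were lower (median -0.24) with 0 at such a p. Lcn2, an acute phase protein, was at 1.02 to 5.56 CPM at 30 days and at 8.45, 2.69, 2.50 and 2.42 CPM at 7 days, with no separation of the days. Nfkbiz, an inhibitor of NF-kappaB induced by it, had a log2FC of -1.98, with library 1 of 7 days at 13.3 CPM against 3.27, 3.49 and 2.59 CPM in the others. Without that library the log2FC was -1.12.

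**Figure D3:**
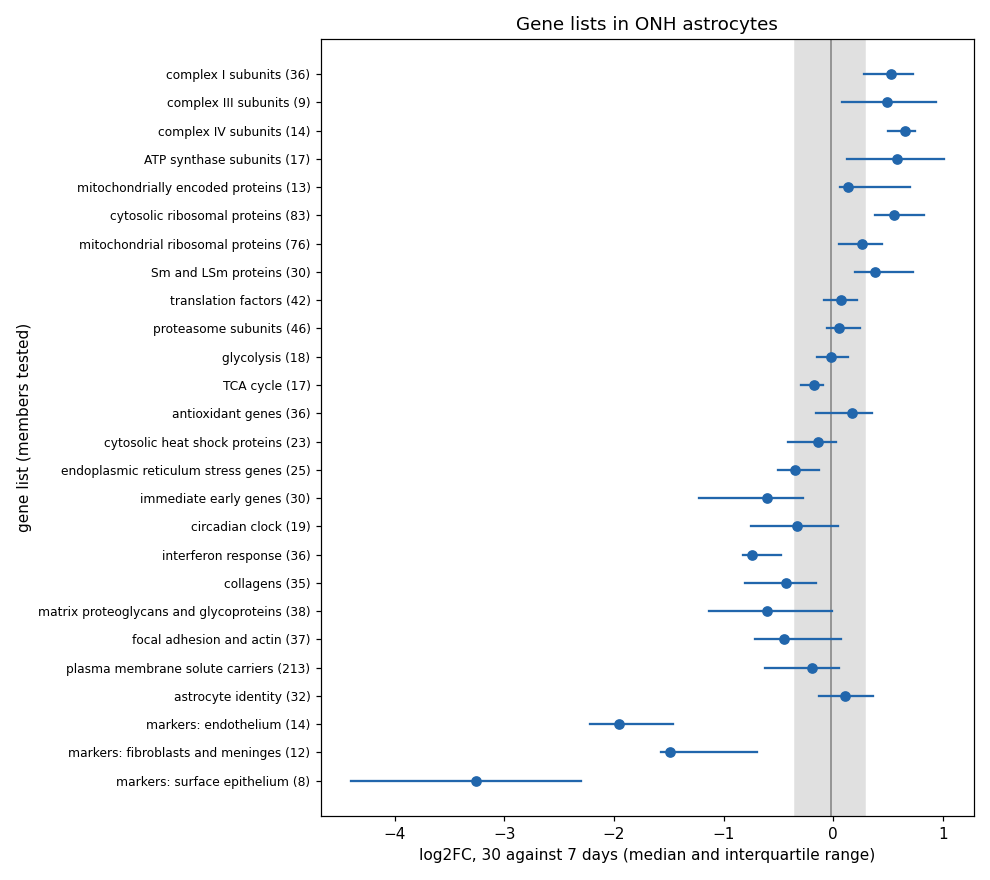
Median log2FC (30 against 7 days, edgeR; points) and interquartile range (lines) of the members tested of 26 gene lists, with the number tested, and the interquartile range of all genes tested as a grey band. Subunits of respiration and ribosomes lie above the median of all genes, interferon, immediate early, endoplasmic reticulum and matrix genes below it. Among the lists plotted, markers of endothelium, fibroblasts and surface epithelium lie farthest below.

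Genes of the matrix and of adhesion were lower by median, and so were the markers of the cells of vessels and meninges. Of 35 collagens 29 were lower (median log2FC -0.43, 10 with an unadjusted p under 0.05), of 38 proteoglycans and glycoproteins 28 (median -0.60, 12 lower and 3 higher with such a p) and of 37 focal adhesion and actin genes 27 (median -0.45, 14 lower and 2 higher). Of all genes, 6.8% were lower and 7.1% higher with such a p. The proteoglycans and glycoproteins summed to 1703 to 2954 CPM at 30 days and to 2832, 2234, 2169 and 4539 CPM at 7 days. Only library 6 of 7 days lay above that 30-day range. Collagens summed to 868 to 1624 CPM against 1818, 1442, 1488 and 2284 CPM. Focal adhesion and actin genes summed to 5688 to 8109 CPM against 8876, 9111, 7205 and 7613 CPM. Col5a2, a fibrillar collagen, was separated at 3.30 to 7.35 CPM (median 6.13) against 8.45, 17.2, 8.02 and 22.4 CPM, a log2FC of -1.26 (DESeq2, adjusted p = 0.0206). Itga5, the fibronectin receptor subunit, was at 2.86 to 9.20 CPM (median 4.29) against 28.9, 15.2, 4.24 and 37.1 CPM, with library 5 of 7 days inside the 30-day range and a log2FC of -1.94 (DESeq2, adjusted p = 0.0106). A pair of named members was higher: Ncan (neurocan, a proteoglycan of the central nervous system; log2FC 0.89; DESeq2, adjusted p = 0.0379) and Tns3 (tensin 3; log2FC 0.61; DESeq2, adjusted p = 0.0439), which was separated.

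The summed CPM of the 14 endothelial markers was 53.1 to 211 at 30 days (median 98.7) and 175, 77.7, 616 and 680.1 in libraries 1, 3, 5 and 6 of 7 days. The sum of the 12 fibroblast and meningeal markers was 533 to 1072 (median 687) against 1269.5, 712, 1020.5 and 2692, and of the 12 mural cell markers 373 to 909.7 (median 510.0) against 813, 599, 1157 and 1472. Library 3 of 7 days lay within the 30-day range in all 3 lists, library 1 in the endothelial and mural lists and library 5 in the fibroblast list, whereas library 6 lay above it in all 3. All 14 endothelial markers were lower at 30 days (median log2FC -1.96), 10 of them with an unadjusted p under 0.05 (6.8% of all genes), as were 11 of 12 fibroblast markers (median -1.49) and 11 of 12 mural markers (median -1.15). Pecam1 was at 1.47 to 10.99 CPM (median 3.24) against 9.17, 3.21, 29.6 and 50.3 CPM. Fewer cells of these types, less RNA per cell and less of their mRNA carried through the precipitation cannot be told apart in these pools. The part of these cells in the matrix and adhesion values was not tested.

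Astrocyte genes themselves differed little between the days by median log2FC. Of 12 markers that define astrocytes 10 were higher, with a median log2FC of 0.11, and their summed CPM was 20056 to 30025 at 30 days (median 22306) and 24111, 29921, 18624 and 17539 at 7 days. Gfap was at 8994 to 17015 CPM at 30 days (median 12851) and at 14524, 19876, 8947 and 10142 CPM at 7 days, a log2FC of -0.04 ± 0.23. The ranges overlapped almost wholly. Of 32 genes of astrocyte identity 19 were higher (median 0.11, 5 with an unadjusted p under 0.05, all higher), S100b with the smallest p. Of all genes, 7.1% were higher with such a p. The summed CPM of this list was 67499 to 98822 at 30 days (median 84329) and 63478, 82473, 68048 and 54408 at 7 days. Gjb6 (connexin 30) was at 18.4 to 31.7 CPM at 30 days (median 23.8) and at 22.2, 18.9, 14.2 and 153 CPM at 7 days, a log2FC of -1.09 that became 0.40 without library 6. Mt1, a metallothionein that binds zinc and copper, was at 775 to 1287 CPM (median 919.6) against 457, 421, 916 and 515 CPM, a log2FC of 0.82 (edgeR, adjusted p = 0.189; DESeq2, adjusted p = 0.0411), again with library 5 inside the 30-day range.

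**Figure D4:**
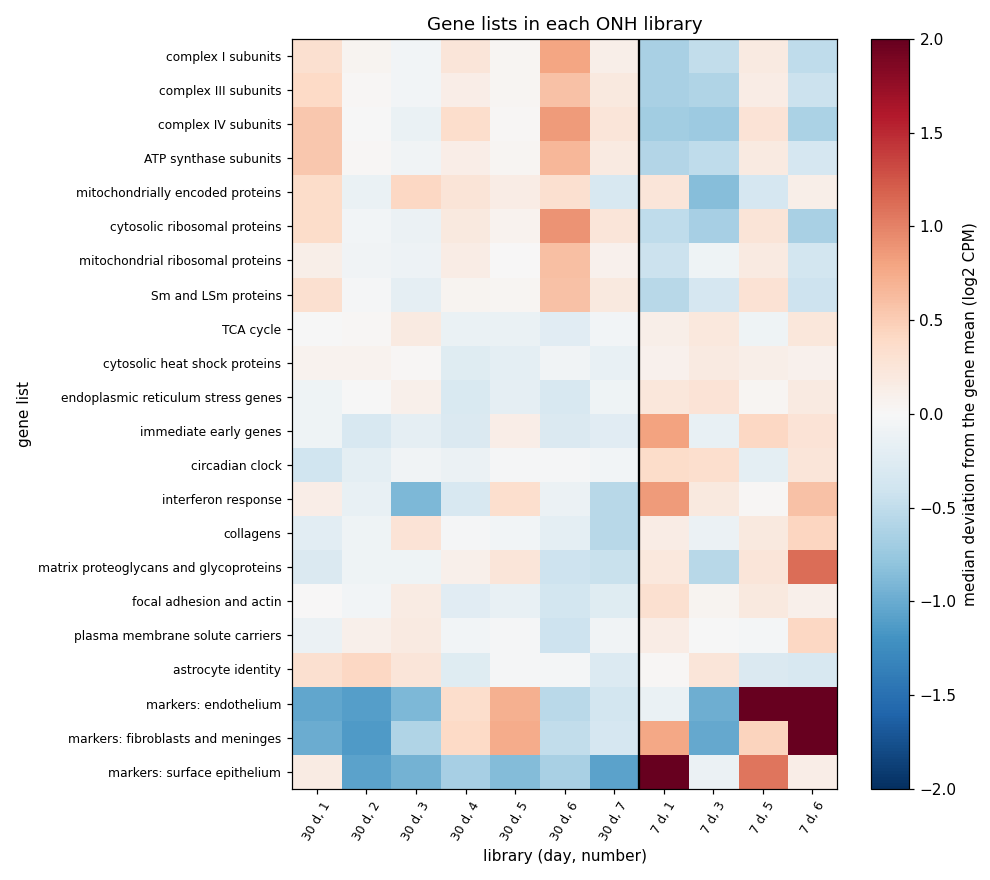
Median deviation of the members of 22 gene lists in each library from each gene's mean over the 11 libraries (log2 of CPM plus 0.5; colour from -2 in blue to 2 in red, larger values at the end colours). Library 5 of 7 days shares the sign of most 30-day libraries in the lists of nuclear respiratory subunits and of ribosomal proteins but not in that of mitochondrially encoded proteins, and the marker lists vary between libraries of the same day.

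Markers of other cell types, those resident in the ONH and those of neighbouring tissue, varied from library to library. Keratins of surface epithelium had the largest decreases by log2FC among the 98 separated lower genes. Krt5 was at 0 to 0.446 CPM at 30 days (median 0) and at 19.3, 1.31, 3.08 and 0.690 CPM at 7 days, and Krt14 at 0 to 0.521 CPM (median 0) and at 14.2, 1.87, 11.6 and 1.15 CPM. The summed CPM of the 20 epithelial markers was 8.80 to 40.8 at 30 days (median 16.8) and 337, 17.5, 62.5 and 61.5 at 7 days, so library 1 held most of it. Photoreceptor markers summed to 119 to 2466 CPM at 30 days (median 237) and to 176, 178, 1642 and 6025 CPM at 7 days, where only library 4 of 30 days and libraries 5 and 6 of 7 days exceeded 1000 CPM. All 12 were lower (median log2FC -1.79), 1 with an unadjusted p under 0.05, where 6.8% of all genes were lower with such a p. Microglial markers summed to 304 to 5608 CPM at 30 days (median 699) and to 303 to 2821 CPM at 7 days. The highest of these was library 7 of 30 days, which also held 92.2 CPM of Gh, the growth hormone of the pituitary, that was at 0 in all 7-day libraries.

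**Figure D5:**
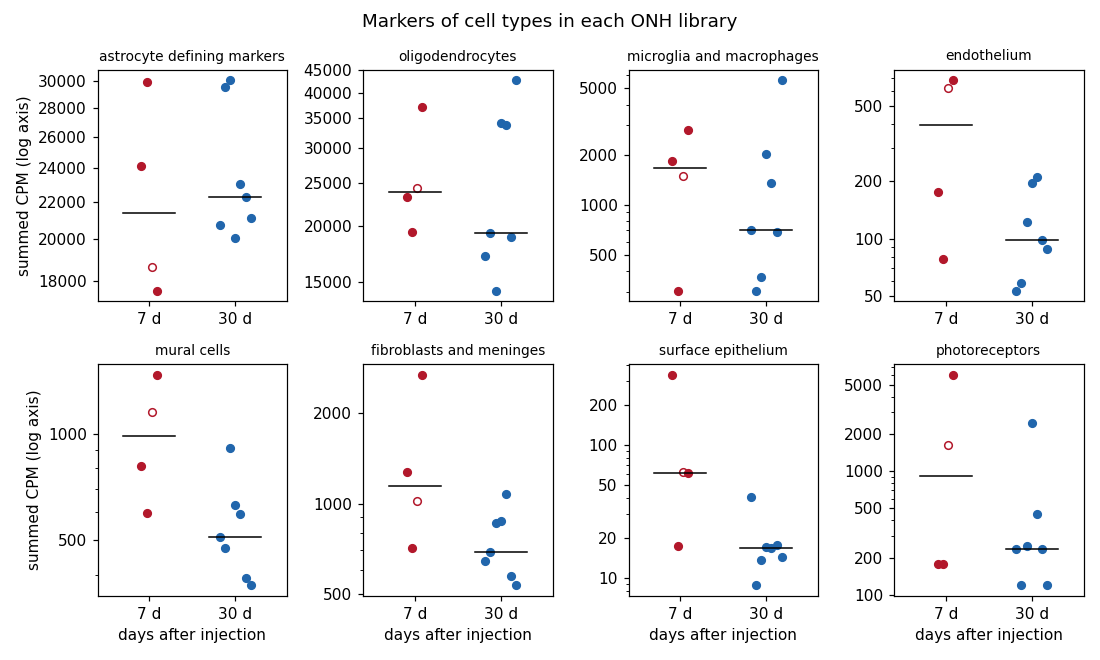
Summed CPM (log axis) of 8 marker lists in each library, 1 point a library, with library 5 of 7 days as an open point and a line at the median of each day. Endothelial markers are highest in libraries 5 and 6 of 7 days, at 616 and 680.1 CPM, epithelial markers in library 1 of 7 days, and astrocyte and oligodendrocyte markers overlap between the days.

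Classes of transcripts that encode no protein differed in direction. Of 435 lincRNAs tested 275 were higher at 30 days (median log2FC 0.29), 15 of them separated and 0 separated in the other direction, where 1.61% of all genes were separated and higher. Of 312 antisense transcripts 207 were higher (median 0.33), with 8 and 0 separated. Processed pseudogenes leaned the other way by median, with 47 of 121 higher (median -0.35). Yet 5 of them were separated and higher and 0 separated and lower. Unprocessed pseudogenes had 10 of 29 higher (median -0.19) and 0 separated. Transcribed processed pseudogenes had 31 of 48 higher (median 0.28) and transcribed unprocessed pseudogenes 20 of 36 (median 0.24). Protein-coding genes had a median of -0.03, with 210 of 14127 separated and higher and 95 separated and lower. Reads of antisense transcripts cannot be told apart from those of their partners where the counting did not use strand, which is not given in the sources used here.

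Among RNA-binding proteins outside the Sm and LSm rings, no common direction was seen. Of 30 SR and hnRNP splicing factors 14 were higher and 16 lower, with a median log2FC of -0.05. Hnrnpdl was at 63.2 to 83.7 CPM at 30 days (median 73.1) and at 40.2, 30.6, 58.3 and 46.6 CPM at 7 days, separated with a log2FC of 0.72 (DESeq2, adjusted p = 0.0126). Hnrnpu had a log2FC of -0.46 and an unadjusted p of 0.00747. Translation factors were even, with 24 of 42 higher and a median of 0.07. Eif4b, which helps the helicase that unwinds mRNA, was separated at 112 to 138 CPM (median 132) against 89.5, 86.0, 105 and 102 CPM, a log2FC of 0.43 (DESeq2, adjusted p = 0.0199). Proteasome subunits (29 of 46 higher, median 0.05) and lysosomal genes (15 of 32 higher, median -0.06) lay near the median of all genes. So did cell cycle genes (14 of 27 higher, median 0.02) and sterol synthesis (8 of 20 higher, median -0.06). In this order, 2, 0, 0 and 0 members were higher and 1, 1, 0 and 1 lower at an unadjusted p under 0.05. Of all genes, 7.1% were higher and 6.8% lower with such a p.

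Solute carriers of the plasma membrane were lower in 147 of 213 (median log2FC -0.19), 23 of them with an unadjusted p under 0.05 against 3 that were higher, where 6.8% of all genes were lower and 7.1% higher with such a p. Slc38a5, a glutamine transporter also found in vessels, was at 0.832 to 5.98 CPM at 30 days (median 2.54) and at 10.3, 5.50, 11.2 and 22.6 CPM at 7 days, a log2FC of -2.31 (edgeR, adjusted p = 0.180; DESeq2, adjusted p = 0.00262). Library 3 of 7 days was the 1 that fell in the 30-day range. Slc25a22, the mitochondrial glutamate carrier, was separated at 10.8 to 18.5 CPM (median 14.7) against 26.1, 26.8, 22.2 and 30.6 CPM, a log2FC of -0.87 (edgeR, adjusted p = 0.180; DESeq2, adjusted p = 0.00108). Of the 36 antioxidant genes 22 were higher (median 0.17), 6 with an unadjusted p under 0.05 against 1 that was lower.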

How the data were processed

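The 11 libraries hold poly(A) RNA bound to HA-tagged ribosomes. Per the labels and methods, the authors aligned reads to mm10 with STAR 2.6.1d, quantified transcripts of Ensembl 94 with Salmon 0.14.2, summed them per gene with tximport and deposited a table of estimated counts as whole numbers, 1 column a library. Groups came from the day and region in the labels. The 7-day columns are numbered 1, 3, 5 and 6 and were matched to their group only. A deposited table of variance-stabilised values was not used.

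Counts were tested with edgeR 4.0.16 (filterByExpr, TMM, quasi-likelihood F-test, Benjamini-Hochberg) in R 4.3.3, with only the 11 ONH libraries in the fit. DESeq2 1.42.0, limma 3.58.1 (voom with quality weights), other scalings and filters, a length and GC correction and leaving out each library were alternatives. The scripts were tested on simulated data. Single values per library were compared with an exact permutation test over all 330 splits. Positions and lengths came from GENCODE M21 (GRCm38), found for 29351 of 29367 identifiers. Each library is a separate pool of 4 mice, and floors of 3 counts cover counting error only.

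The members and gene lists were chosen with earlier results of these data known, so no list was tested. Named genes were, among separated genes, the 12 largest changes, the 10 smallest p-values and the 6 highest levels in each direction, genes the study names for the ONH, and from each list the member with the smallest p in each direction or, for marker lists, the 2 highest. Not all of them are printed. Rps21 was chosen for its promoter. Some genes are not reported here.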

Additional observations from a re-analysis of the deposited data

Results flagged for a closer look

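Each value printed was compared with the others of its day, and a library was singled out where its gap to the nearest library took up more of the range than Dixon's 95% critical value. Of 146 sets of values 25 held such a library. For independent, normally distributed values about 1 in 20 would. CPM are skewed and the sets share libraries, so the 2 shares cannot be compared. Fat3 and Wnt7a were at 0 in every 7-day library but library 6, where the rule flags any count above 0.

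Among the 7 libraries of 30 days, library 1 was high for Crebrf (151 CPM), Krt5 (0.446 CPM) and the summed epithelial markers (40.8 CPM). Library 2 was high for Nfkbiz (3.28 CPM), library 3 for Lmna (299 CPM), and library 6 for S100b (3188 CPM). Library 4 was high for the summed photoreceptor markers (2466 CPM), and library 5 for Pecam1 (10.99 CPM) and Slc38a5 (5.98 CPM). Library 7 was high for Gh (92.2 CPM) and the summed microglial markers (5608 CPM).

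Among the 4 libraries of 7 days, library 1 was high for Krt5 (19.3 CPM), Lcn2 (8.45 CPM), Nfkbiz (13.3 CPM), Pagr1a (4.78 CPM) and the summed epithelial markers (337 CPM). Library 5 was high for Cox5b (85.5 CPM), Eloc (46.9 CPM), Psmb9 (47.2 CPM) and Uqcr10 (52.8 CPM). Library 6 was high for Atp5b (1405 CPM), C1ra (36.7 CPM), Gjb6 (153 CPM), Fat3 (0.115 CPM) and Wnt7a (0.173 CPM). The cause was not tested for any of them.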

How the results depend on the processing

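No paired analysis was possible because the 7-day columns carry numbers that are not the replicate numbers of the labels. Against 0 calls with edgeR, DESeq2 called 279 genes higher and 169 lower, the length and GC correction 2 lower and the fit with no filter beyond 1 count 2 lower. With edgeR and 1 library left out, 0 to 123 genes were called higher and 0 to 44 lower, most without library 5 of 7 days. With DESeq2, in fits added after the data were seen, leaving out 1 library gave 102 to 939 higher and 59 to 563 lower. Without library 7 of 30 days and library 1 of 7 days together, also added, edgeR called 1 higher, 659 genes were lower at an unadjusted p under 0.05, and 417 and 227 genes were separated, higher and lower.

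At an unadjusted p under 0.05, 1962 genes were lower with no filter. With 1 library left out, 812 to 1848 genes were higher and 768 to 1576 lower at such a p, and 273 to 1055 were separated and higher and 114 to 531 separated and lower, which fewer libraries favour by construction. Differences between the days (30 minus 7) in library measures ran, with 1 library left out, from -1003329 to 4492464 for total counts, from 329 to 1096 for genes with at least 1 count, from 0.924 to 1.62 percentage points for the share of the 100 highest genes and from -0.381 to -0.0601 points for the share of protein-coding genes.

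Of 1289 values of 65 named genes under alternatives, 1283 kept their direction. With 1 library left out, the log2FC of Gjb6 ran from -1.40 to 0.40, turning without library 6 of 7 days, and of Gfap from -0.19 to 0.21. Gfap also turned to 0.0010 with the length and GC correction and to 0.0081 without libraries 7 and 1. Of 1279 medians of the gene lists and of all genes, 1227 kept their sign and 71 moved by more than the SD of the 30-day libraries. The cause was not tested. Depth limits the genes under about 1 CPM.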
